A study of Mus musculus with 16 samples.

Results

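Antiviral interferon-stimulated genes were followed as a set in mGF, primary murine gingival fibroblasts, the matrix-making cells of the gum. The set is 43 genes picked by symbol out of 56941 genes in the table. All 43 were found, and 41 had enough counts to be tested. The primary mGF came from wild-type (WT) C57Bl6 mice aged 3 to 6 months, were grown from explants of the tissue around a maxillary molar, and were used between passages 2 and 8. They were treated for 24 h with BSA (control), the albumin that carries the fatty acid, with 1 ng/mL of the cytokine IL-1β, with 200 µM of the saturated fatty acid palmitate complexed to BSA, or with palmitate + IL-1β at the same doses. Each of the 4 conditions had 4 bulk RNA libraries, numbered 1 to 4 in BSA, 5 to 8 in IL-1β, 9 to 12 in palmitate and 13 to 16 in palmitate + IL-1β.

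Interferon-stimulated genes are the effector arm of innate antiviral defence. Type I and type III interferons bind their receptors, Janus kinases at the receptors become active, and the transcription factor complex ISGF3, which holds STAT2 and IRF9, binds a repeated GAAA motif called the interferon-stimulated response element. The products bind or cut viral RNA, block viral entry and budding, attach the ubiquitin-like protein ISG15 to other proteins, or raise the cell's sensitivity to further viral RNA. Fibroblasts carry the type I interferon receptor and can mount this program.

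Upstream sequences are shown for the 5 members that rose most with palmitate and for the 2 that moved least, so that the element can be read in its place. Each is the 250 bases before the start of the gene's canonical transcript (GENCODE vM39, GRCm39), 5′ to 3′ on the gene's strand, and capitals mark matches to the element's core, GAAANNGAAA or its reverse TTTCNNTTTC. Oas3, Rsad2, Mx1 and Phf11d lie on the minus strand and Ifit1, Isg20 and Ifi27 on the plus strand.
Oas3, chr5:120915730-120915979: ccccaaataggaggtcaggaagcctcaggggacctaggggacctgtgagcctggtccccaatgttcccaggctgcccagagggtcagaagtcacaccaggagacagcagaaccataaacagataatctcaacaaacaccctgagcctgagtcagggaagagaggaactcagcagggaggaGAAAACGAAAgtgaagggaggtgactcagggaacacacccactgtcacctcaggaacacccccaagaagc
Rsad2, chr12:26506452-26506701: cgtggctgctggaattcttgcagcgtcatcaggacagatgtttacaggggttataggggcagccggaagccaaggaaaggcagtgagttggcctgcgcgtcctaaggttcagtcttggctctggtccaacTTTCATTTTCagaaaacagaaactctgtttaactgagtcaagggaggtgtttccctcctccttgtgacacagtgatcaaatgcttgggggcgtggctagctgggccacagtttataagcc
Mx1, chr16:97264107-97264356: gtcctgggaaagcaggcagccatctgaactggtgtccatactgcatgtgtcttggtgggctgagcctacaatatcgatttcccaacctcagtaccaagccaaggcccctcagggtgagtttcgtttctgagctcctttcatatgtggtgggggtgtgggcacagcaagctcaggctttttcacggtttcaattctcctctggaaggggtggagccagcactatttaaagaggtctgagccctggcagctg
Ifit1, chr19:34618021-34618270: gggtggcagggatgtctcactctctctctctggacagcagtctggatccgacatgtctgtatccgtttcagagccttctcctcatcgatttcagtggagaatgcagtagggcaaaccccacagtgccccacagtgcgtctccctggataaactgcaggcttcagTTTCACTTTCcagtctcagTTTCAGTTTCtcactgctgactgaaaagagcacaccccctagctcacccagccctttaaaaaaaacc
Phf11d, chr14:59602946-59603195: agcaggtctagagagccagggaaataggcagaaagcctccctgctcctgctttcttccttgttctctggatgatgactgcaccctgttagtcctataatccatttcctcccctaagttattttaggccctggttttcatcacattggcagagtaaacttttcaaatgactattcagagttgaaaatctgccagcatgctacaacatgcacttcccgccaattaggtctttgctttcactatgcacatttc
Isg20, chr7:78563263-78563512: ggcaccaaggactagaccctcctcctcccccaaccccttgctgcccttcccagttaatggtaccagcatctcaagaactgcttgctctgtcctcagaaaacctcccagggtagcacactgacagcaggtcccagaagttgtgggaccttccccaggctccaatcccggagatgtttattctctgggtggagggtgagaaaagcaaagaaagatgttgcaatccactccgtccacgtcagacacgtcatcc
Ifi27, chr12:103400167-103400416: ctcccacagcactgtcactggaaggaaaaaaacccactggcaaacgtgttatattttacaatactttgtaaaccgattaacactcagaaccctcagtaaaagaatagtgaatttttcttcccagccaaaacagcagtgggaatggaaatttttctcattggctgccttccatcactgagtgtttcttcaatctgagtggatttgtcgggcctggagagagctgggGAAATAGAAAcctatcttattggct

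Among the 5 that rose most, Ifit1 held 2 matches in this window, and Oas3 and Rsad2 held 1 each. The letters searched were not found in the windows of Mx1, Phf11d and Isg20, while Ifi27, which moved little, held 1. Over the whole set, 14 of 43 windows (32.6%) held the core on either strand, against 722 of 21738 windows of protein-coding genes (3.32%). The 13 tested members with a match had a median log2 fold change with palmitate of 3.91, and the 28 without had 2.44. These groups were not matched on their level in BSA, and members lower in BSA tended to have larger changes. In 9 members the window held at least 2 matches, and in Isg15 and Rtp4 it held 3. Overlapping matches were each counted, as in Isg15 (starting at -50, -44 and -38), Rtp4 (-25 and -19), Bst2 and Oas1g, so they need not be separate elements. The other motif searched, the gamma-activated site TTCNNNGAA, known from the response to type II interferon, was in 4 of 43 windows (9.30%) and in 7.69% of all windows, and in Bst2 it overlapped the response element. A match is a description of letters, and binding was not measured.

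**Figure D1:**
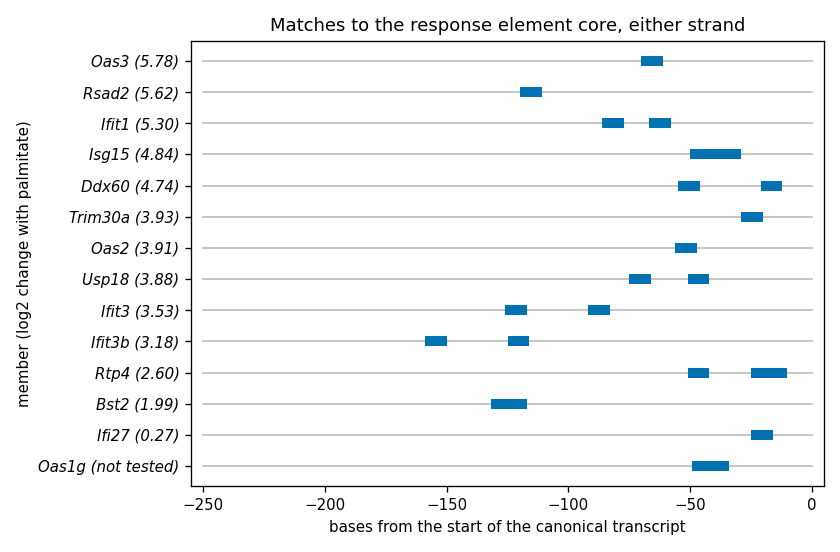
Matches to the interferon-stimulated response element core in the 250 bases before the canonical start of the 14 members that held a match; x axis, bases from the start; y axis, member with its log2 fold change with palmitate against BSA. Blue bars are matches, which run together where they overlap, and lie between positions -159 and the start.

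The libraries held 21234789 to 92752515 gene counts, the deepest being palmitate replicate 10. Levels are CPM, a library's counts scaled to a common total, on TMM-scaled library sizes, and levels of different genes are ranked per kilobase of the canonical transcript. The fibroblast markers were high, with Col1a1 at 14193 ± 346 CPM in BSA (SD, n = 4), although Lum, also on that list, reached only 1.82 ± 0.184 CPM. The 7 leukocyte markers summed to 2.57 to 4.35 CPM per library over all conditions, and Ptprc, Adgre1, Itgam and Cd3e each averaged under 0.1 CPM. Of the plasmacytoid dendritic cell list, which summed to 317 to 522 CPM per library, Siglech, the defining marker, had no count in any library and Ccr9 had at most 4 counts in a BSA library. Nearly all of that sum was Tcf4, a transcription factor gene of many cell types, which fell with palmitate (-0.59 ± 0.04 on the log2 scale), and the remaining gene, Bst2, is itself a member of the set. In bulk RNA, a change in the share of cells that express a gene and a change in RNA per cell cannot be told apart. The labels do not say that the libraries came from separate animals or cultures, so p-values measure the spread between these libraries.

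The libraries of a condition differed in the whole set at once. Palmitate + IL-1β replicate 16 had the highest level of its condition for 40 of the 41 tested members, whereas it was highest for 28.6% of all tested genes. Its median member stood 0.61 above the mean of the other palmitate + IL-1β libraries on the log2 scale. In IL-1β, replicate 5 was highest for 26 of 41 members and stood 0.37 higher on the same scale, and it was highest for 25.1% of all tested genes. In palmitate, replicate 12 was lowest for 30 of 41 members and stood at -0.22, and it was lowest for 26.8% of all tested genes, while replicate 9 was highest for 23 of 41. In palmitate + IL-1β, replicate 15 was lowest for 28 of 41 members and stood at -0.28, and it was lowest for 27.1% of all tested genes. Some results that rest on these libraries are also given without them. For every contrast, the range of counts of members called on leaving out each library is given at the end.

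Palmitate raised nearly the whole set. Of 41 tested members, 40 were higher than in BSA (edgeR quasi-likelihood test, Benjamini-Hochberg adjusted p under 0.05), against 19.8% of all 16306 tested genes called higher. In 40 of 41 members every palmitate library lay above every BSA library, Ifi27 being the exception, against 19.5% of all tested genes with such a separation. In 35 members the rise was more than 2-fold, against 3.58% of all tested genes. The median log2 fold change of the members was 2.60, and that of all tested genes was -0.003. Oas2, Oas3, Oasl1, Isg15 and Epsti1 had under 10 counts in every BSA library and entered the test through other conditions. Of the 32 members with at least 10 counts in every library, 31 rose, with a median of 2.42. With Oas2, Oas3 and Epsti1, which had 3 counts or fewer in every BSA library, set to their lower bound, the median was 2.58. The 43 members together made up 541 to 567 CPM of a BSA library and 1749 to 2058 CPM of a palmitate library. Isg20, an exonuclease of single-stranded RNA, was the member that did not pass. It stood at 8.44, 7.85, 8.74 and 9.37 CPM in BSA and 9.57, 9.68, 9.62 and 10.4 CPM in palmitate, levels that were close but did not overlap (0.19 ± 0.10, log2 fold change ± SE, edgeR adjusted p = 0.13).

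**Figure D2:**
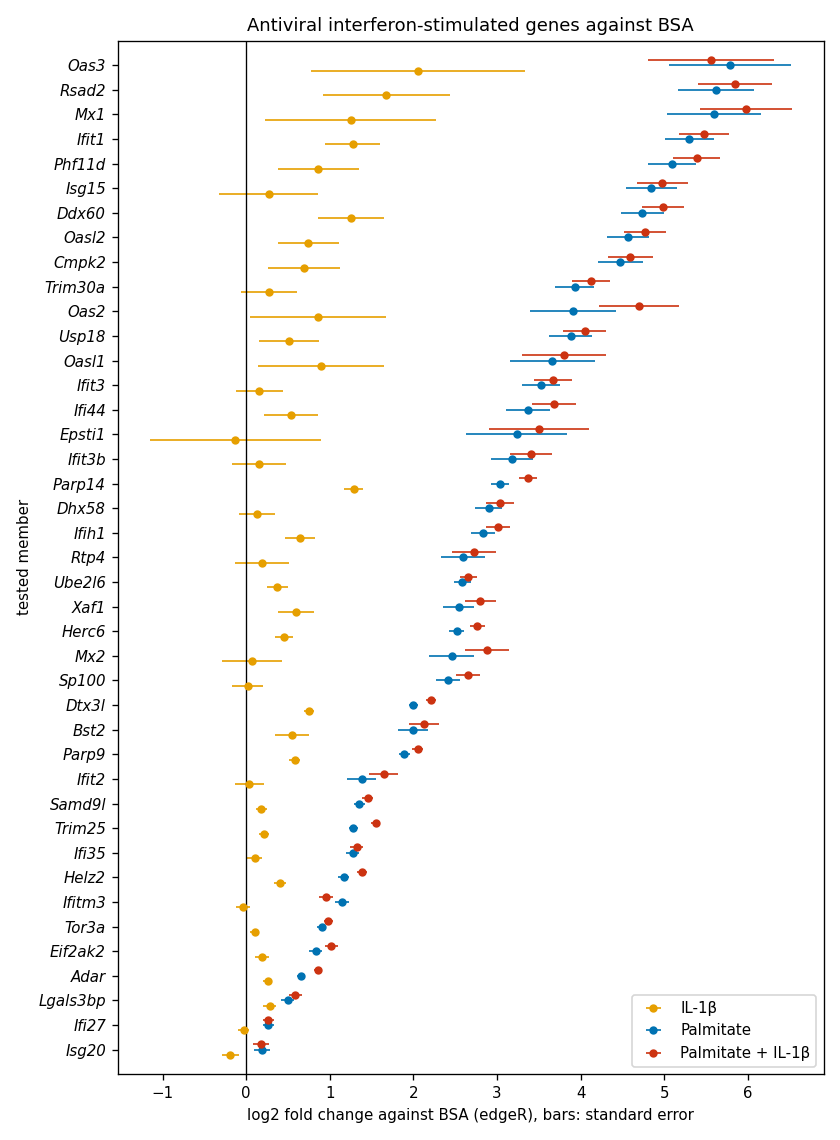
Log2 fold change against BSA of the 41 tested members, ordered by the change with palmitate; points are edgeR estimates from 4 libraries per condition and bars are standard errors. The palmitate and palmitate + IL-1β points run from 0.19 and 0.18 for Isg20 to above 5 for Oas3, Rsad2 and Mx1, and the IL-1β points lie nearer to 0.

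Ifit1 rose most of the IFIT genes. IFIT proteins bind foreign RNA and hinder its translation, and the 4 genes of the family lie together on chromosome 19. Ifit1 stood at 7.37, 6.01, 5.23 and 7.76 CPM in the BSA libraries and at 294, 267, 269 and 216 CPM in the palmitate libraries. It stood at 24.4, 11.9, 14.1 and 13.9 CPM with IL-1β and at 241, 297, 209 and 431 CPM with palmitate + IL-1β. The lowest palmitate library was thus far above the highest BSA and IL-1β libraries, a 39.5-fold rise with palmitate (5.30 ± 0.30 on the log2 scale, edgeR adjusted p = 6.54e-09).

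Ifit3 and Ifit3b are near-identical copies that share over 97% of their transcripts at 97.2% identity, so reads could be lost or split between them. Ifit3 stood at 8.02, 5.40, 7.36 and 6.15 CPM in BSA and at 79.96, 82.8, 84.2 and 64.3 CPM in palmitate, and at 9.98, 7.77, 6.33 and 6.17 CPM in IL-1β and 68.4, 85.1, 68.8 and 121 CPM in palmitate + IL-1β. Ifit3b followed at 4.85, 3.49, 4.50 and 3.67 CPM in BSA, 41.7, 37.4, 40.8 and 30.03 CPM in palmitate, 6.22, 4.84, 3.64 and 3.85 CPM in IL-1β and 34.2, 42.9, 34.1 and 64.6 CPM in palmitate + IL-1β. Both copies rose with palmitate, by 3.53 ± 0.23 and 3.18 ± 0.25 on the log2 scale. Ifit2 began highest in the family per kilobase, at 8.71 CPM per kb in BSA, and rose least, by 1.38 ± 0.17.

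The OAS enzymes sense double-stranded RNA and make oligoadenylates that switch on RNase L. All 4 tested members of the family rose with palmitate, although most had few counts. Oasl2, the highest of the family per kilobase, stood at 1.81, 1.84, 1.75 and 1.92 CPM in BSA and 46.4, 42.6, 46.9 and 38.00 CPM in palmitate. Its levels were 4.83, 3.28, 2.37 and 1.91 CPM with IL-1β and 44.1, 50.9, 37.9 and 68.1 CPM with palmitate + IL-1β. The 23.7-fold rise of Oasl2 with palmitate was clear of the spread (edgeR adjusted p = 5.97e-09), and the BSA libraries were nearly identical.

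Oas3 had the largest fitted rise of the set and rested on few counts. Its counts were 0, 0, 0 and 1 in BSA, 3, 0, 2 and 0 in IL-1β, 24, 54, 13 and 14 in palmitate and 19, 16, 13 and 23 in palmitate + IL-1β. These are 0, 0, 0 and 0.0350 CPM in BSA, 0.123, 0, 0.0633 and 0 CPM in IL-1β, 1.17, 0.595, 0.477 and 0.575 CPM in palmitate and 0.538, 0.529, 0.418 and 0.847 CPM in palmitate + IL-1β. Summed over the libraries, the palmitate to BSA ratio was 77.1 with a 95% counting interval of 13.5 to 3073, so the size is poorly known and its rank is that of the fit. The same ratio was 16.4 (7.34 to 45.5) for Oas2 and 12.9 (6.62 to 28.7) for Oasl1, which represses IRF7 translation in mice. These intervals cover counting error only.

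Oas1a and Oas1g, the pair left untested, share 99.0% and 100% of their transcripts at 97.6% identity. Oas1a had 0 counts in every BSA and IL-1β library, 5, 9, 5 and 2 counts in palmitate and 4, 5, 3 and 8 counts in palmitate + IL-1β. This corresponded to 0.243, 0.0992, 0.184 and 0.0822 CPM with palmitate and 0.113, 0.165, 0.0965 and 0.295 CPM with both agents. Against a floor of 3 counts over 4 BSA libraries, summed Oas1a was 5.14-fold higher with palmitate and 6.44-fold higher with both agents. These ratios leave out counting error in the treated libraries, so they are not lower bounds. Both differences had a two-sided p of 0.029 (exact permutation test), the smallest that 4 against 4 libraries can give. Oas1g had 1 count with IL-1β, in replicate 5, and 2 with palmitate + IL-1β, in replicates 15 and 16, with 0 in BSA and palmitate. At these counts no difference was detectable for Oas1g.

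The ISG15 conjugation genes rose together, 5 of 5. ISG15 is a ubiquitin-like modifier that UBE2L6 and HERC6 attach and USP18 removes. Isg15 stood at 0.207, 0.162, 0.0763 and 0.0350 CPM in BSA and at 3.11, 3.61, 4.41 and 3.66 CPM in palmitate. It stood at 0.286, 0.117, 0.0950 and 0.124 CPM in IL-1β and at 3.06, 3.94, 3.60 and 5.78 CPM in palmitate + IL-1β. All palmitate libraries lay far above every BSA library for this gene, and the summed counts, 15 in BSA and 601 in palmitate, gave a ratio of 29.4 (17.7 to 52.9). About 61.6% of the Isg15 transcript matches the gene Gm9706 at 95.2% identity, so its level may be understated.

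Trim25, a ubiquitin ligase that acts on the RNA sensor RIG-I, had the highest level per kilobase of this group in BSA, 5.61 CPM per kb. It stood at 33.00, 31.1, 32.1 and 29.2 CPM in BSA, 77.7, 74.5, 80.3 and 72.8 CPM in palmitate, 37.6, 34.4, 36.5 and 37.6 CPM in IL-1β and 85.3, 90.6, 87.2 and 104 CPM in palmitate + IL-1β. The 4 conditions formed 4 separate levels, each above the last in the order BSA, IL-1β, palmitate and palmitate + IL-1β. Usp18, which also dampens signalling at the interferon receptor, rose by 3.88 ± 0.26, Ube2l6 by 2.58 ± 0.10 and Herc6 by 2.52 ± 0.09 on the log2 scale with palmitate.

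Sensors of viral RNA rose as well, 3 of 3. Ifih1, which encodes the sensor MDA5, stood at 3.76, 2.78, 4.23 and 3.84 CPM in BSA and 27.01, 26.4, 27.4 and 22.8 CPM in palmitate. It stood at 6.55, 5.82, 4.94 and 5.55 CPM with IL-1β and 26.7, 28.96, 24.4 and 37.8 CPM with both agents. Ifih1 thus rose 7.13-fold with palmitate, and even its IL-1β libraries did not overlap those of BSA. Ddx60, a helicase, moved from 0.622, 0.226, 0.267 and 0.804 CPM in BSA to 13.9, 14.00, 13.6 and 10.2 CPM in palmitate, with 1.68, 0.742, 1.30 and 0.911 CPM in IL-1β and 13.7, 15.95, 13.3 and 19.2 CPM in palmitate + IL-1β. The 26.6-fold rise of Ddx60 with palmitate was the larger (edgeR adjusted p = 1.37e-10), while its BSA libraries were uneven. Dhx58, which encodes LGP2, a regulator of MDA5, rose by 2.90 ± 0.16 on the log2 scale.

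Of the restriction factors 9 of 10 rose, Isg20 being the one that did not pass. Rsad2 encodes viperin, which makes a chain-terminating nucleotide. It stood at 0.0592, 0.226, 0.0763 and 0.594 CPM in BSA and 14.4, 10.2, 12.1 and 10.9 CPM in palmitate, and at 1.27, 0.430, 0.633 and 0.746 CPM in IL-1β and 8.87, 14.5, 11.9 and 19.97 CPM in palmitate + IL-1β. The BSA libraries were uneven, with replicate 4 highest, and the ratio of summed counts, palmitate to BSA, was 47.7 (32.88 to 71.96). Cmpk2, a nucleotide kinase gene whose start lies 12752 bases from that of Rsad2 on the opposite strand, rose by 4.48 ± 0.27 on the log2 scale against 5.62 ± 0.45 for Rsad2.

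Samd9l, an inhibitor of translation, varied little between BSA libraries. It stood at 63.1, 62.3, 63.02 and 62.4 CPM in BSA, 177, 157, 161 and 147 CPM in palmitate, 74.2, 65.3, 69.2 and 75.4 CPM in IL-1β and 168, 176, 149 and 193 CPM in palmitate + IL-1β. Its 2.56-fold rise with palmitate left no overlap with the other arms without palmitate. The GTPases Mx1 and Mx2 rose by 5.59 ± 0.56 and 2.46 ± 0.27. C57BL/6 mice carry an Mx1 allele that lacks coding exons, so Mx1 RNA in this strain does not give the full protein. Mx1 and Mx2 also share 23.97% and 34.78% of their transcripts at 95% identity or more. Trim30a rose by 3.93 ± 0.23, Sp100, a component of PML nuclear bodies, by 2.41 ± 0.14, Bst2, the tetherin that holds budding virus at the membrane, by 1.99 ± 0.18, and Ifitm3, which blocks viral entry, by 1.15 ± 0.08.

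The double-stranded RNA kinase gene Eif2ak2 and the editor gene Adar moved less than most members. Eif2ak2 encodes the kinase PKR and had the highest level per kilobase of all members both in BSA, 23.9 CPM per kb, and in palmitate, 42.5 CPM per kb. It stood at 104, 101, 104 and 106 CPM in BSA, 126, 110.0, 117 and 120.3 CPM in IL-1β, 190.0, 183, 185 and 181 CPM in palmitate and 193, 209, 179.9 and 258 CPM in palmitate + IL-1β. These levels do not overlap between BSA and palmitate, with a rise of 1.78-fold. Adar, the editor that changes adenosine to inosine in double-stranded RNA, rose by 0.66 ± 0.05 on the log2 scale.

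PARP9 and DTX3L form a ubiquitin ligase complex, PARP14 is an ADP-ribosyltransferase, and the 3 genes rose in steps from BSA over IL-1β to palmitate. Parp9 and Dtx3l start 681 bases apart on opposite strands of chromosome 16, where Parp14 also lies. Parp14 stood at 11.9, 10.5, 10.9 and 12.1 CPM in BSA and 28.6, 27.3, 26.5 and 28.9 CPM in IL-1β. It stood at 104, 93.5, 91.7 and 82.8 CPM in palmitate and 105, 118, 105 and 145 CPM in palmitate + IL-1β. The IL-1β libraries therefore lay above all BSA libraries and below all palmitate libraries for Parp14. Dtx3l stood at 33.7, 33.2, 34.4 and 34.8 CPM in BSA, 59.2, 53.9, 57.6 and 59.4 CPM in IL-1β, 142, 138, 136 and 128 CPM in palmitate and 155, 160.4, 138 and 177 CPM in palmitate + IL-1β, in the same order of conditions. With palmitate, Parp14 rose by 3.03 ± 0.11, Dtx3l by 2.00 ± 0.06 and Parp9 by 1.89 ± 0.07 on the log2 scale.

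The 10 members outside these groups all rose with palmitate. Phf11d, a PHD finger gene, stood at 0.592, 0.388, 0.649 and 0.350 CPM in BSA, 17.1, 17.9, 17.3 and 15.1 CPM in palmitate, 1.31, 0.820, 0.633 and 0.911 CPM in IL-1β and 16.9, 22.5, 15.2 and 29.2 CPM in palmitate + IL-1β. It thus rose 34.1-fold with palmitate, and 33.5% of its transcript matches Phf11a at 96.6% identity. Tor3a, a torsin ATPase gene, had the highest level per kilobase of these 10 in palmitate, 23.7 CPM per kb, and stood at 39.8, 44.1, 43.2 and 39.4 CPM in BSA, 76.6, 77.3, 81.4 and 76.1 CPM in palmitate, 44.3, 45.4, 45.1 and 44.00 CPM in IL-1β and 76.8, 83.1, 78.1 and 91.1 CPM in palmitate + IL-1β. Its 1.87-fold rise was small and tight. The remaining log2 changes ran from 0.27 for Ifi27, 0.50 for the secreted galectin-binding glycoprotein Lgals3bp, 1.17 for the helicase Helz2 and 1.27 for Ifi35 to 2.54 for the pro-apoptotic Xaf1, 2.60 for Rtp4, 3.24 for Epsti1 and 3.37 for Ifi44.

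**Figure D3:**
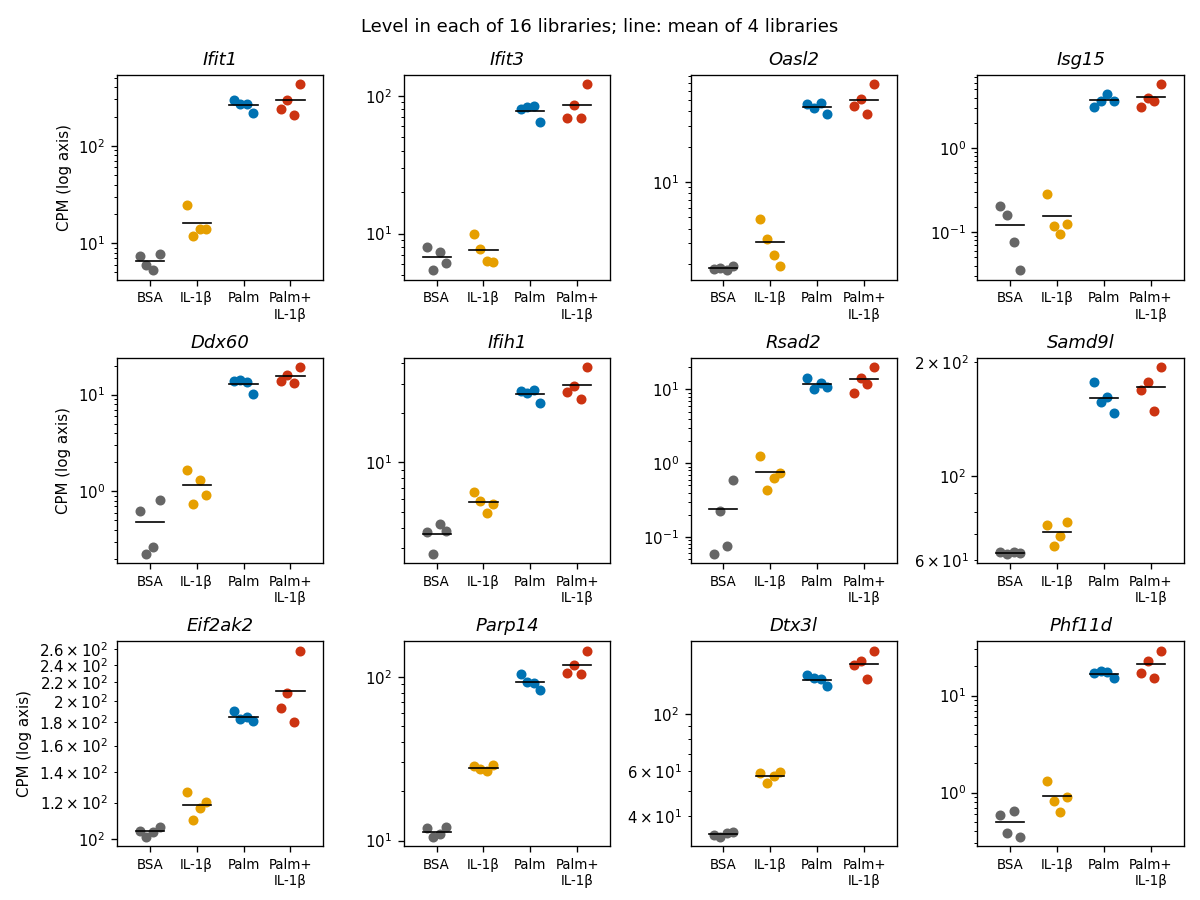
Level in CPM (log axis) of 12 members in each of the 16 libraries, in replicate order from left to right within each condition; the line is the mean of 4 libraries. Palmitate and palmitate + IL-1β libraries sit above all BSA libraries in every panel, and the rightmost palmitate + IL-1β point, replicate 16, is the highest of its condition in all 12.

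The order of levels within the set changed with palmitate. Per kilobase, Lgals3bp ranked next to Eif2ak2 in BSA at 14.3 CPM per kb, whereas Ifit3 and Ifit1 took that place in palmitate at 37.2 and 35.2 CPM per kb, up from 3.22 and 0.888. The median log2 fold change with palmitate was 4.79 in the 10 tested members under 1 CPM in BSA. It was 2.72 in the 18 at 1 to 10 CPM and 1.17 in the 13 above 10 CPM. The BSA libraries enter both the level and the change, so these are not independent.

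IL-1β alone moved the set far less. Of 41 tested members 12 were higher than in BSA (edgeR, Benjamini-Hochberg), against 10.1% of all tested genes called higher, and the median log2 fold change was 0.37. The largest changes that passed were 1.29 ± 0.11 for Parp14 (edgeR adjusted p = 6.66e-07), 1.27 ± 0.32 for Ifit1 (edgeR adjusted p = 0.018) and 1.25 ± 0.39 for Ddx60 (edgeR adjusted p = 0.042). Dtx3l rose by 0.76, Ifih1 by 0.64, Parp9 by 0.58, Herc6 by 0.46, Helz2 by 0.40, Ube2l6 by 0.37, Lgals3bp by 0.28, Adar by 0.26 and Trim25 by 0.22. By role, all 3 genes of the PARP9, DTX3L and PARP14 group rose, as did 3 of 5 ISG15 conjugation genes and 2 of 3 RNA sensors. The calls were 1 of 4 for the IFIT genes, 0 of 4 for the OAS family and 0 of 10 for the restriction factors. They were 1 of 2 for the double-stranded RNA kinase and editor and 2 of 10 for the members outside these groups. Rsad2 (1.68 ± 0.76), Oas3 (2.06 ± 1.28), Mx1 (1.25 ± 1.02), Oasl2 (0.74 ± 0.37) and Isg15 (0.27 ± 0.59) did not pass. Without IL-1β replicate 5, the library that stood high, 7 members passed and the median was 0.30. The calls lost were those of Ifit1 (1.01), Ube2l6 (0.37), Ifih1 (0.57), Ddx60 (1.05) and Lgals3bp (0.18).

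The direct comparison of the agents put palmitate above IL-1β for 41 of 41 tested members (edgeR, Benjamini-Hochberg), against 16.5% of all tested genes, with a median log2 difference of 2.39. The difference was 4.58 for Isg15, 4.03 for Ifit1 and 3.82 for Oasl2, and 1.31, 1.25 and 1.74 for Parp9, Dtx3l and Parp14. These contrasts and those against BSA share libraries, so they are not independent of each other.

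Palmitate + IL-1β against BSA gave 40 of 41 members higher, against 24.8% of all tested genes, with a median of 2.88. Isg20 again did not pass (0.18 ± 0.10). The fitted rises were 5.98 ± 0.55 for Mx1, 5.85 ± 0.45 for Rsad2, 5.57 ± 0.75 for Oas3, 5.47 ± 0.30 for Ifit1 and 5.39 ± 0.28 for Phf11d. Without replicate 16 the count was 40 and the median 2.68. Adding palmitate to IL-1β raised 41 of 41 members, against 18.9% of all tested genes, with a median of 2.54, and Isg20 was among them with 0.37 ± 0.10 (edgeR adjusted p = 0.0047). Its IL-1β libraries were at 8.14, 8.51, 6.71 and 6.84 CPM and its palmitate + IL-1β libraries at 9.41, 8.14, 9.49 and 12.01 CPM, which overlap.

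Adding IL-1β to palmitate moved few members. Against palmitate, 6 of 41 were higher (edgeR, Benjamini-Hochberg), with 5.71% of all tested genes called higher, and the median log2 difference was 0.19. They were Parp14 (0.34 ± 0.09, edgeR adjusted p = 0.023), Trim25 (0.27 ± 0.05, edgeR adjusted p = 8.51e-04), Herc6 (0.25), Helz2 (0.22), Dtx3l (0.21) and Adar (0.20). For the IFIT genes the differences were 0.17 for Ifit1, 0.26 for Ifit2, 0.14 for Ifit3 and 0.22 for Ifit3b, and these did not pass. Without palmitate + IL-1β replicate 15 the median was 0.27 and 9 members passed. Without palmitate + IL-1β replicate 16 the median fell to 0.03 and 3 members passed, Trim25, Adar and Parp14. The count was also 3 without palmitate replicate 10 (Trim25, Adar and Dtx3l) or without palmitate replicate 12 (Trim25, Adar and Helz2). The 5.71% of all tested genes belongs to the fit of all 16 libraries, and these smaller fits have no such share beside them.

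**Figure D4:**
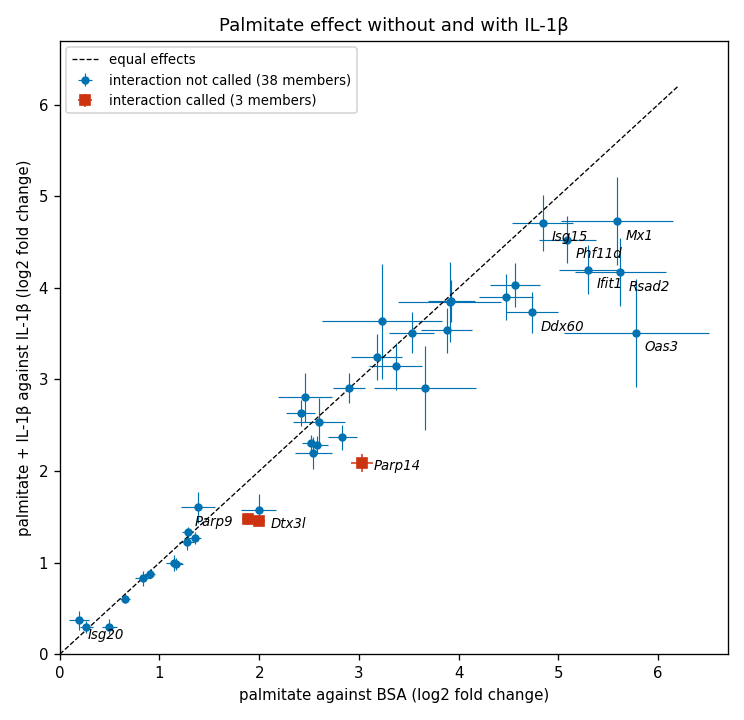
Palmitate effect on the 41 tested members without IL-1β (x axis, palmitate against BSA) and with IL-1β (y axis, palmitate + IL-1β against IL-1β), as edgeR log2 fold changes with standard errors; the dashed line marks equal effects. Points lie near the line for most members, with 32 of the 41 below it and 9 above. The largest effects lie below it with wide errors. Parp9, Dtx3l and Parp14, drawn as red squares, lie below it with differences of -0.42, -0.55 and -0.94.

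Members with a larger palmitate effect in the absence of IL-1β had a larger one in its presence too. The estimates come from separate libraries, and across the 41 genes they had a Pearson's r of 0.96 and a Spearman's rho of 0.96, a description across genes. The interaction, which is the palmitate effect with IL-1β minus that without, was called in 3 members, all lower, against 1.83% of all tested genes called lower. They were Parp14 (-0.94 ± 0.14, edgeR adjusted p = 0.0012), Dtx3l (-0.55 ± 0.08, edgeR adjusted p = 2.15e-05) and Parp9 (-0.42 ± 0.09, edgeR adjusted p = 0.0085). For these genes the rises with each agent alone summed, on the log2 scale, to more than the rise with both. Without replicate 16 the values were -1.06, -0.50 and -0.61 for Parp14, Parp9 and Dtx3l, and Ifih1 (-0.60, edgeR adjusted p = 0.018) was called too. The estimates for Oas3 (-2.28 ± 1.33), Rsad2 (-1.45 ± 0.80) and Ifit1 (-1.10 ± 0.39) were as large or larger, with errors too wide to pass. Across the 41 members the median interaction was -0.18, with 32 below 0 and 9 above. Over all tested genes the median was -0.002, with 8246 of 16306 below 0.

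Transcripts of the interferon genes searched were barely seen. The 12 ligand genes searched, Ifnb1, 5 Ifna genes, Ifnab, Ifne, Ifnk, Ifnl2, Ifnl3 and Ifng, had 0 counts in the 4 BSA libraries, 0 in the 4 IL-1β libraries, 3 in the 4 palmitate libraries and 1 in the 4 palmitate + IL-1β libraries. The 3 counts in palmitate were 1 each for Ifnb1, Ifna2 and Ifnab. A count of 0 over a condition allows up to 0.0184 to 0.0284 CPM. A difference in these ligands between conditions was therefore not detectable at this depth and at this time. Sequence shared among the ligand genes was not checked, and reads with several places were not counted.

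The rest of the pathway was measured in 29 of 44 listed genes that could be tested. With palmitate 22 rose and 1 fell, against 19.8% of all tested genes called higher and 17.5% called lower. Among the receptors 4 of 5 rose, led by Ifnar2, a chain of the type I receptor, with 0.87 ± 0.09, and Il10rb stood at -0.23 ± 0.20. Ifnlr1, a chain of the type III receptor, had too few counts to be tested. Its summed counts were 17 in BSA and 12 in palmitate. The kinases Jak1, Jak2 and Tyk2 rose, with Jak2 at 1.06 ± 0.04. Of the ISGF3 and related factors 6 of 7 rose, led by Irf7 at 2.75 ± 0.19, with Stat2 at 1.30 ± 0.11 and Irf9 at 1.00 ± 0.10, while Irf3 stood at -0.06 ± 0.07.

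Of 10 listed genes for sensors, their adaptors and their kinases, 7 rose with palmitate, against the same 19.8%. Whether these rises came before or after any interferon signal was not tested. Zbp1, a sensor of Z-form nucleic acid, went from 0.0850 ± 0.0804 CPM in BSA to 8.48 ± 0.908 CPM in palmitate, 6.60 ± 0.32 on the log2 scale, above the fitted change of any of the 41 members. The BSA counts of Zbp1 were 0, 6, 2 and 2, so the size of its rise and its rank rest on few counts. Mavs (-0.03 ± 0.05), Ticam1 (-0.06 ± 0.06) and Cgas (0.24 ± 0.10) did not pass. Of the inhibitors, Socs3 rose by 2.16 ± 0.10, Ptpn2 rose by 0.50 ± 0.07, and Pias1 fell (-0.16 ± 0.05, edgeR adjusted p = 0.013). With IL-1β alone 13 of the 29 rose, against 10.1% of all tested genes, among them Zbp1 at 2.19 ± 0.61 and Irf1 at 0.95 ± 0.05, whereas Stat2 stood at -0.05 ± 0.11 and Irf9 at 0.11 ± 0.10. The interaction was called in Ifngr2, Tyk2, Irf1 and Rigi, all lower, against 1.83% of all tested genes called lower, with Irf1 at -0.78 ± 0.07.

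**Figure D5:**
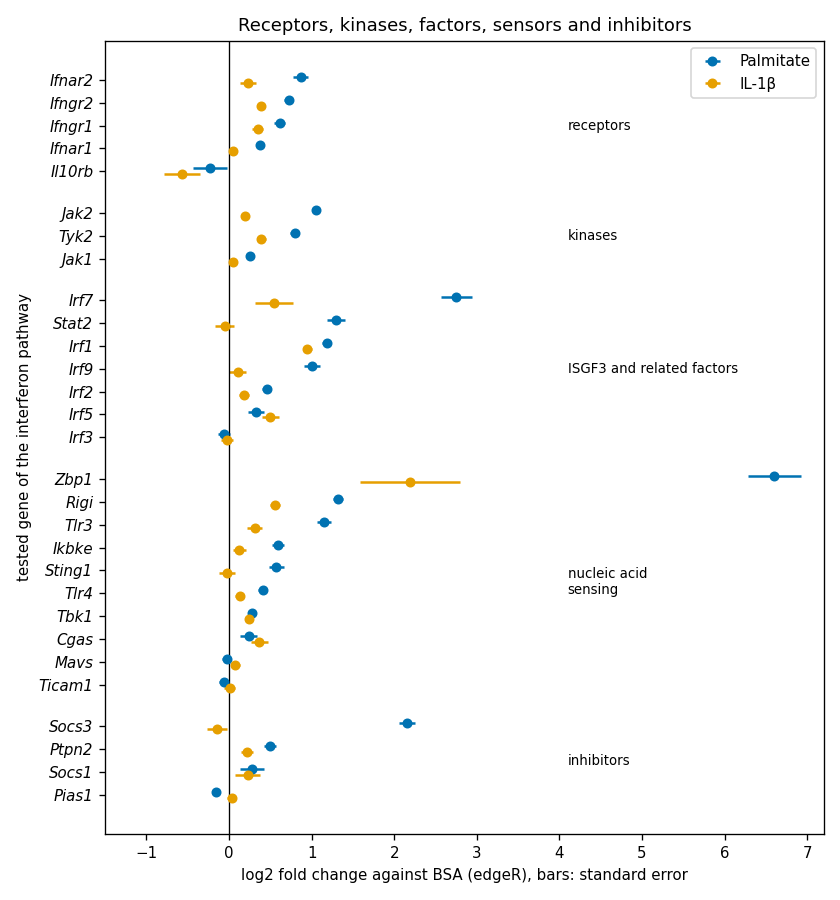
Log2 fold change against BSA of the 29 tested pathway genes with palmitate (blue) and IL-1β (orange), grouped by role; points are edgeR estimates from 4 libraries per condition and bars are standard errors. Zbp1 stands farthest right with palmitate, followed by Irf7 and Socs3, and Irf1 is the factor in which the agents lie closest among those that rose over 2-fold.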

How the data were processed

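Bulk RNA of mGF was sequenced in 16 libraries, 4 per condition, grouped by the deposited labels. The authors used Trimmomatic 0.39 for trimming, STAR 2.7.10a for alignment to GRCm39 and HTSeq 2.0.9 for strand-aware counting. The deposited table holds unfiltered, unnormalized counts per gene. The 5 summary lines that name no gene (18.3% to 21.4% of a library) were left out. Reads with several places were not counted. The kit is stranded total RNA in the labels and oligo(dT)-primed in the methods.

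From the counts, edgeR 4.0.16 (R 4.3.3) was run as a quasi-likelihood test with robust estimation, TMM normalization and filterByExpr (minimum count 10, minimum total 15) over all 16 libraries, without covariates, and p was adjusted by Benjamini-Hochberg over 16306 genes with a threshold of 0.05. Intervals are exact 95% and cover counting error only, as PCR copies were not marked, and the floor was 3 counts. Upstream windows came from GRCm39 and GENCODE vM39, canonical start only. In data drawn with known changes, 199 of 200 changed genes were recovered, with 9 false calls. The draw gave all genes the same spread, shifted no library as a whole and changed only genes above a cutoff of mean count. It therefore does not measure recovery for members with few counts or with uneven libraries.

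The members, lists and tests were chosen with earlier results of these data known. One listed pathway gene and one listed marker are not reported here. Levels in every library are given, per role, for the member with the highest mean CPM and the one with the largest change with palmitate, and for both near-identical pairs. Alternatives were DESeq2 1.42.0, upper-quartile and RLE normalization, 2 other filters, fits of 8 libraries and leaving out each library. DESeq2 is also the tool of the authors.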

Additional observations from a re-analysis of the deposited data

Results flagged for a closer look

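In 8 of 164 groups of 4 libraries, a member's extreme library lay apart from the others by a share of the group's range above Dixon's 95% critical value, where chance alone gives about 5%. The shares of the range were 1 for Oas3 in BSA replicate 4, the only BSA library with a count, 0.838 for Mx1 in BSA replicate 4 and 0.835 for Rtp4 in BSA replicate 1. They were 0.847 for Isg15 in IL-1β replicate 5, 0.891 for Ddx60, 0.836 for Bst2 and 0.877 for Isg20 in palmitate replicate 12, and 0.946 for Ifi35 in palmitate + IL-1β replicate 16. Replicate 16 was the highest of its condition for 40 of 41 members and replicate 5 for 26 of 41, as described above.

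The palmitate effect differed with and without IL-1β, by the interaction term of the edgeR fit, in Parp14 (-0.94), Dtx3l (-0.55) and Parp9 (-0.42) on the log2 scale. In each of these genes the IL-1β libraries lay above all BSA libraries. This was not particular to them, as IL-1β and BSA libraries did not overlap in 14 of the 41 tested members. The share over all tested genes was not counted.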

How the results depend on the processing

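No paired analysis was possible because the conditions share no replicate numbers. Counts of members called were within 1.5 times under DESeq2, both other normalizations and both filters, apart from the interaction without a filter on low counts, which called 5. Fitting only the 8 libraries compared gave 3 for palmitate + IL-1β against palmitate. Leaving out each library gave 40 to 40 members for palmitate against BSA, 7 to 16 for IL-1β against BSA, 40 to 41 for palmitate + IL-1β against BSA, 3 to 9 for palmitate + IL-1β against palmitate, 41 to 41 for palmitate + IL-1β against IL-1β, 40 to 41 for palmitate against IL-1β and 3 to 4 for the interaction. The causes were not tested. No called member changed direction in any alternative. Of the 12 calls with IL-1β, 7 held in every alternative, as did 2 of the 6 against palmitate. DESeq2 called 17 members with IL-1β, against 12. Upper-quartile normalization lowered the share of calls that were higher, over all genes, from 53.1% to 37.1% for palmitate and from 67.1% to 43.5% for IL-1β, both against BSA, while called members stayed higher. Low counts limit what can be said of the OAS genes other than Oasl2 and of the interferon ligands. For Oas1a and Oas1g, low depth and reads lost between the near-identical copies cannot be told apart.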
